A study of Rattus norvegicus with 6 samples.

Results

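Serpins, the largest family of serine protease inhibitors, were followed in RNA of laser-captured pancreatic duct glands from wild-type and HIP rats. Members were all rows whose symbol begins with Serpin, a clade letter from a to i and a number, and 33 of 15677 distinct symbols met that rule. Their measured values played no part in the rule. Both groups were Sprague-Dawley rats, and the labels give neither age nor sex. The wild-type group (WT) held 3 libraries, WT26, WT1 and WT4, named by group and the number in the title. The HIP group held 3 libraries, HIP30, HIP2 and HIP3, from rats transgenic for human islet amyloid polypeptide (HIAPP) that the series calls pre-diabetic. In this line the transgene is known to be driven by an insulin promoter in beta cells, and whether it is active in the glands was not measured here. Glands were picked by their shape and cut out by laser, the labels do not give the share of surrounding wall tissue captured with them, and they do not say that each library came from an animal of its own. The tests therefore weigh differences only against library-to-library spread, part or all of which may be technical.

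Most serpins stop a protease by offering it a flexible loop as bait. The protease cuts the loop, and the serpin folds over and traps the enzyme in an inactive complex. Clade A and several smaller clades are secreted and include plasma inhibitors made mainly by the liver, whereas clade B members lack a classical signal peptide and act largely inside epithelial and blood cells. A few members have lost inhibition, among them the collagen chaperone Serpinh1 and the matrix factor Serpinf1. In the pancreas serpins are known as guards against digestive and leukocyte proteases.

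Levels are given as CPM, read counts scaled to a common library size and by TMM factors, which correct for differences in library composition. Where 3 values of a gene follow each other, they stand in the order WT26, WT1, WT4 for wild type and HIP30, HIP2, HIP3 for HIP. CPM is not corrected for transcript length, so that levels are compared between libraries and not between genes. Library totals ran from 15141136 to 17574682 reads. Libraries of 1 group differed from each other. WT4 and HIP3 carried beta cell transcripts (8 markers fixed, 6 in the tables, summed at 11304 and 5049.6 CPM), WT1 and HIP2 carried 93.5 and 152 CPM, and WT26 and HIP30 no read of any of them. Duct epithelium was present in every library, with 9 measured markers, Krt19 and Epcam among them, summing to 10059 to 26886 CPM in wild type and 9393 to 12837 CPM in HIP. Since these are bulk samples, fewer cells of a type and less RNA per cell cannot be told apart.

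Of the 33 members, 20 had enough reads to be tested, and none of them passed the test over all genes. Of the 20, 14 had a negative difference, meaning a lower level in HIP, and 6 a positive one, against 48.9% negative among all 12102 genes tested. The median difference was -0.52 on the log2 scale, beside 0.0097 over all genes. By limma with Benjamini-Hochberg adjustment, 0 members were called at an adjusted p of 0.05, and the share called among all genes was 0%. At an unadjusted p under 0.05, 6 members stood lower in HIP (Serpinb2, Serpinb5, Serpinb7, Serpinb8, Serpinf1 and Serpini1) and 0 higher, against 3.26% and 3.29% of all genes. In 4 members, Serpinb7, Serpinb8, Serpinf1 and Serpini1, every HIP library lay below every wild-type library, and 0 showed the opposite, against 4.27% and 5.27% of all genes. The 6 became 1 without WT1, 3 without HIP30 and 3 without HIP2, where the share of all genes lower in HIP by the same rule was also smaller, at 1.08%, 1.34% and 1.31%. The median of the members became -0.92 without WT4 and -1.01 without HIP3, -0.31 over all 33 members with no filter on low reads and -0.94 over 16 with a filter of 30 reads. Only members with enough reads entered these counts and medians, except the median with no filter, and no test of the members as a list was made.

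Set against their wild-type means, the tested members had a median deviation of -1.03, -0.83 and -0.20 in the HIP libraries. HIP3 thus stood closer to wild type than the other HIP libraries did, and it remained below WT26, WT1 and WT4, which lay between -0.0044 and 0.10. HIP30 held the lowest level of 9 of the 20 tested members and HIP2 of 1. Summed over all 33 members, Serpin transcripts amounted to 2660.4, 2156 and 1266 CPM in wild type, and to 865, 1014 and 1419 CPM in HIP. The groups overlapped in this sum, since HIP3 lay above WT4.

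**Figure D1:**
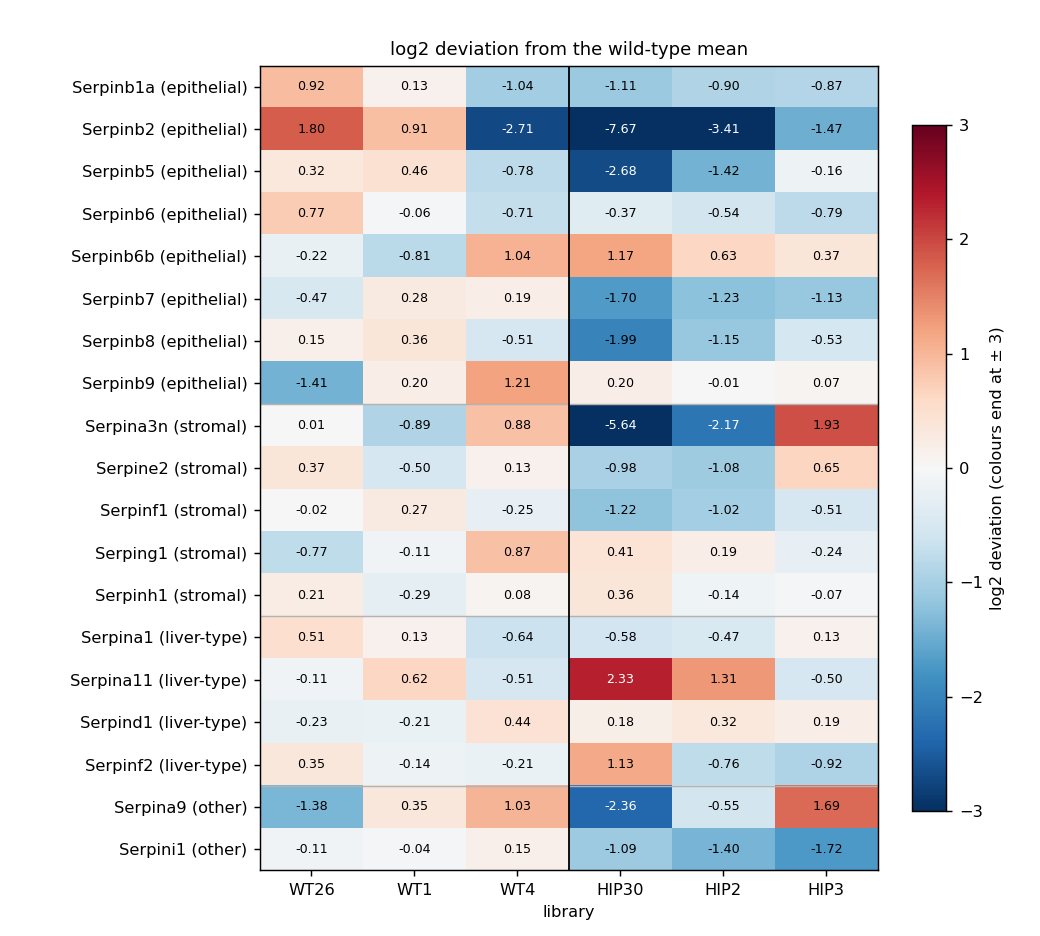
Log2 deviation of the tested Serpin genes, 1 of them not shown (rows, with its group of origin) in each library (columns) from the mean of the 3 wild-type libraries, on log2(CPM + 0.121), with the value in each cell and colours ending at 3 in either direction. HIP30 and HIP2 hold most of the deep negative values, and Serpinb2 and Serpina3n spread most widely.

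Epithelial members, all of clade B, included 4 of the 6 genes with an unadjusted p under 0.05. The group took in every measured clade B member but Serpinb9d, also those known from blood cells, such as Serpinb9. Of 13 epithelial members 8 were tested, 6 with a negative and 2 with a positive difference, and their median was -1.09. Clade B genes sit in separate chromosomal clusters, on chromosomes 13 and 17 in the RefSeq annotation of GRCr8, a later build than the rn5 named for these files. The chromosome 13 cluster holds 10 coding Serpin genes in the order Serpinb5, Serpinb12, Serpinb13, Serpinb3a, Serpinb3, Serpinb11, Serpinb7, Serpinb2, Serpinb10 and Serpinb8, with 1 other coding gene among them. Of the 9 measured, 4 were tested (Serpinb5, Serpinb7, Serpinb2 and Serpinb8). All 4 had a negative difference and an unadjusted p under 0.05, with a median of -1.38. Among all genes tested, 48.9% had a negative difference and 3.26% stood lower in HIP at an unadjusted p under 0.05. Without WT1, Serpinb5, Serpinb7 and Serpinb2 no longer met that limit (limma, unadjusted p = 0.142, 0.0965 and 0.111). On chromosome 17, 4 were tested (Serpinb6, Serpinb9, Serpinb6b and Serpinb1a), 2 negative and 2 positive, with a median of -0.24. The difference between the clusters was not tested.

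Serpinb5 encodes maspin, an epithelial clade B protein known as a tumour suppressor. It stood at 602, 661 and 281 CPM in wild type, whereas the HIP libraries had 75.3, 180.2 and 431 CPM. The groups overlapped, because HIP3 exceeded WT4, while HIP30 and HIP2 lay below every wild-type library. The means were 515 ± 205 CPM in wild type and 229 ± 183 CPM in HIP (SD, n = 3). On the log2 scale this was -1.42, standard error 0.60 (limma, adjusted p = 0.691). With 1 library left out in turn the difference ran from -2.05 to -0.79.

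Serpinb8, an inhibitor of the proprotein convertase furin, followed a similar order of libraries. It stood at 270.2, 312 and 170.2 CPM in the wild-type libraries and 60.9, 109.6 and 169 CPM in the HIP libraries. The groups did not overlap, but HIP3 and WT4 were nearly level. The log2 difference was -1.22 ± 0.38 (standard error, limma, adjusted p = 0.691), over -1.57 to -0.84 with libraries left out. For each read of Serpinb8 there were 2.23, 2.12 and 1.65 reads of Serpinb5 in WT26, WT1 and WT4, and 1.24, 1.64 and 2.56 in HIP30, HIP2 and HIP3. HIP30 thus held the lowest ratio and HIP3 the highest.

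Serpinb7, called megsin, is a clade B member first described in kidney mesangial cells and also found in skin. Its level was low throughout, 2.86, 4.91 and 4.62 CPM in wild type and 1.15, 1.65 and 1.78 CPM in HIP. Every HIP library lay below every wild-type library, and the 3 HIP values were close together. The difference was -1.35 with a standard error of 0.50 on the log2 scale (limma, adjusted p = 0.691). With libraries left out it moved little, from -1.59 to -1.18.

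Serpinb2, plasminogen activator inhibitor type 2, had the widest standard error among the members. It stood at 86.2, 46.2 and 3.65 CPM in wild type, whereas HIP30 had no read and HIP2 and HIP3 had 2.20 and 8.82 CPM. WT26 and WT1 were high, and WT4 lay within the HIP range. No read in HIP30 allows a level of up to 0.182 CPM, a limit of 3 reads that covers counting error only. The fitted difference of -4.18, with a standard error of 1.66, depends on the pseudocount and missed the threshold (limma, adjusted p = 0.691). It ran from -5.54 to -2.44 with libraries left out.

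RefSeq promoters, 250 bases before to 50 after the annotated start on GRCr8, were found for 26 of the 33 members, and none was found for Serpinb8. Both strands were searched for the letters of 6 known motifs. The AP-1 letters TGANTCA, with any base at N, stood in 4 member promoters, those of Serpinb2, Serpinb3, Serpinb5 and Serpinb7, all in the chromosome 13 cluster, and in 7.33% of all 33469 promoters of that length. The matches read TGAGTCA in Serpinb3 and Serpinb7, TGATTCA in Serpinb2 and TGAATCA in Serpinb5. The last 2 are the same letters read on opposite strands. A narrower search with only G or C at the centre would match Serpinb3 and Serpinb7 but not Serpinb2 or Serpinb5. The 3 of the 4 matched genes with enough reads to be tested are shown because each had a lower level in HIP by unadjusted p. Serpinf1 and Serpini1, also lower in HIP by unadjusted p, had a promoter without the AP-1 letters and are not shown. Capitals mark the AP-1 letters.
Serpinb5 (chr13:23499953-23500252, GRCr8, plus strand): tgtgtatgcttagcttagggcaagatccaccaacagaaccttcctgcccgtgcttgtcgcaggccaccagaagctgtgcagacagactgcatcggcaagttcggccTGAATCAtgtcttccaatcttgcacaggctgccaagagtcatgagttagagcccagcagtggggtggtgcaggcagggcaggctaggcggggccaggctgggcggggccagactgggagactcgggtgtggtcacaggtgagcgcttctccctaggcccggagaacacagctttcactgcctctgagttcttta
Serpinb7 (chr13:23910056-23910355, GRCr8, plus strand): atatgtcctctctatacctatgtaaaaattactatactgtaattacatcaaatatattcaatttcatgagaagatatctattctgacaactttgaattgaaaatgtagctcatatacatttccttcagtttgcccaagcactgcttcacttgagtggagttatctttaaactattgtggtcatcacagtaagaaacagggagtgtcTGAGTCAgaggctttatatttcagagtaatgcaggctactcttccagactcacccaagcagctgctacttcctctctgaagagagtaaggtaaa
Serpinb2 (chr13:24055771-24056070, GRCr8, plus strand): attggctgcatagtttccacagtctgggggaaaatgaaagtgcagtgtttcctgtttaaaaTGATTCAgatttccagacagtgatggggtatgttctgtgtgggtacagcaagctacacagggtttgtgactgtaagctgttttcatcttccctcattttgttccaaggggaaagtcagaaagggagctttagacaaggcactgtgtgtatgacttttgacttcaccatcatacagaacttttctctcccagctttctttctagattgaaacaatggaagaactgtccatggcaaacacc

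Counted from the first base shown, the match lies at bases 107 to 113 in Serpinb5, 207 to 213 in Serpinb7 and 62 to 68 in Serpinb2. The GC box letters GGGCGG stood in 7 member promoters and 33.1% of all. The CCAAT box was found in 6 and 37.5% of all. The TATA box letters TATAAA were found in 5 and 14.2% of all. The STAT letters TTCNNNGAA stood in 3 member promoters (Serpina3n, Serpina11 and Serpinb6) and 8.87% of all. The E-box letters CACGTG stood in 1, Serpina1f, and 6.42%. A match is a run of letters and not a site shown to be bound.

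Among the chromosome 17 members, Serpinb1a, which inhibits neutrophil elastase and cathepsin G, stood at 987, 569 and 253 CPM in wild type. Its HIP levels of 242, 279.6 and 285 CPM were close together and near that of WT4, so that the wild-type mean of 603 ± 368 CPM rested on WT26 and WT1. The log2 difference was -0.96 ± 0.44 (standard error, limma, adjusted p = 0.691). It was -0.50 without WT26 and -1.48 without WT4. Krt19, a keratin of duct cells, had the same order among wild-type libraries, with 7325, 3072 and 1815 CPM, and 1619, 1514 and 2307 CPM in HIP. The part of epithelial content in the Serpinb1a difference was not tested.

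Serpinb6, an inhibitor of cathepsin G and trypsin that RefSeq now lists as Serpinb6a, stood at 228, 128 and 81.8 CPM in wild type and 104, 91.6 and 77.2 CPM in HIP. WT26 was high and the groups overlapped, with a difference of -0.57, a standard error of 0.35 and a range of -0.92 to -0.18 with libraries left out, the ends being without WT4 and without WT26. Serpinb9, the inhibitor of granzyme B, stood at 2.74, 8.66 and 17.6 CPM and 8.63, 7.45 and 7.90 CPM. Macrophage and myeloid markers, which stand for cells known to make Serpinb9 too, summed to 127, 359 and 587 CPM in wild type and 2234, 2255 and 387 CPM in HIP, with all 9 tested positive. Most of the HIP30 and HIP2 sums was Mpeg1, a pore protein of macrophages, and without it the sums were 127, 178 and 402 CPM in wild type and 305, 309.96 and 243 CPM in HIP, within the wild-type range. Their part in the Serpinb9 levels was not tested. The HIP libraries of Serpinb9 lay within the wild-type range, and the difference of 0.086 turned to -0.62 without WT26. Serpinb6b, a paralog of Serpinb6, ranged from 0.553 to 2.31 CPM in wild type and from 1.41 to 2.55 CPM in HIP. Reads of near-identical paralogs in this cluster may have been split or dropped by the authors' counting, so that Serpinb6, Serpinb6b and the Serpinb9 genes are uncertain.

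The epithelial members together summed to 2180.5, 1731 and 816 CPM in wild type and to 495, 674 and 983 CPM in HIP. The duct epithelium markers ran from 26886 CPM in WT26 to 10059 CPM in WT4, and from 9393 to 12837 CPM between HIP30 and HIP3. Both sums were highest in WT26 and lowest in HIP30. Of the 9 measured duct markers 5 had a negative difference and 4 a positive one, with a median of -0.22. The part of duct epithelial content in the epithelial Serpin differences was not tested.

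**Figure D2:**
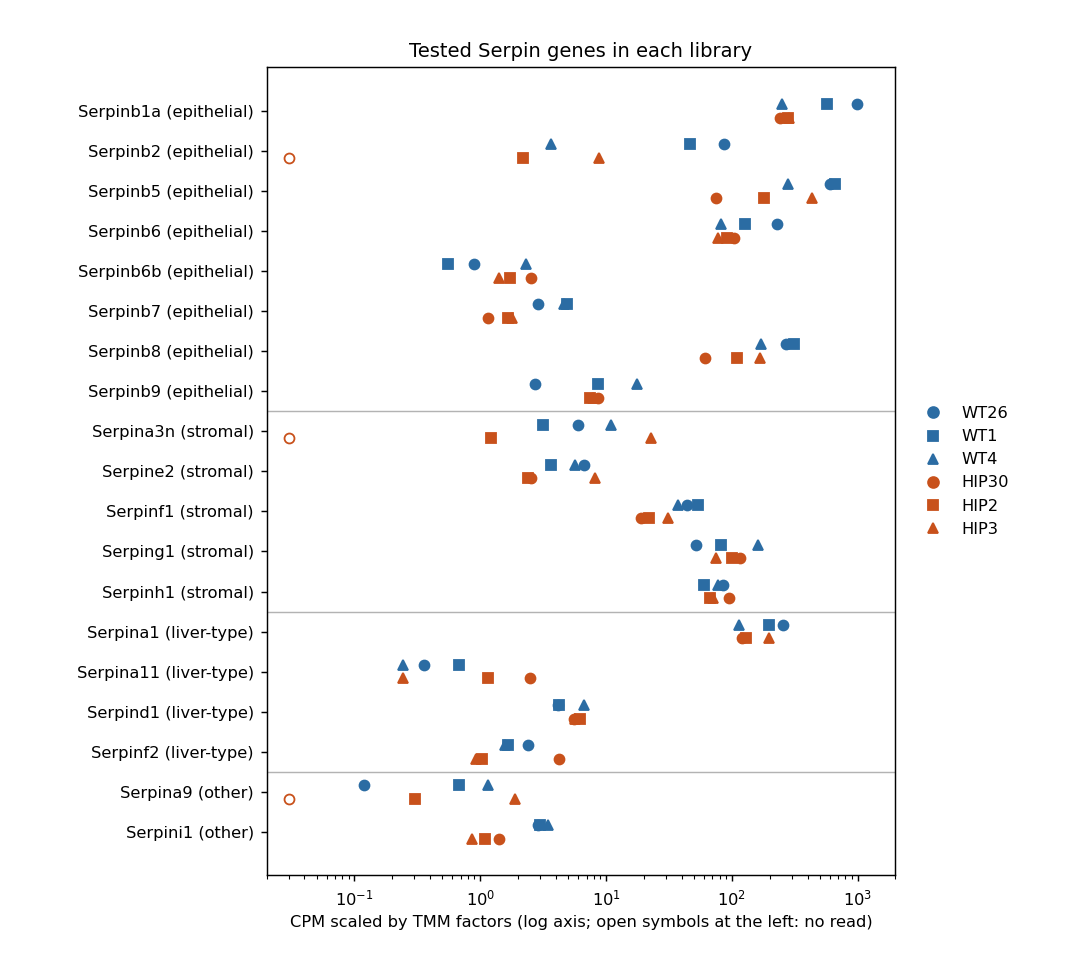
CPM on a log axis for the tested Serpin genes, 1 of them not shown, in each of the 6 libraries, wild type in blue above and HIP in orange below, with open symbols at the left edge for no read. Wild-type and HIP symbols do not overlap for Serpinb7, Serpinb8, Serpinf1 and Serpini1, and Serpinb2 runs from 86.2 CPM in WT26 to no read in HIP30.

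The stromal members did not share 1 direction. All 6 were tested, 4 with a negative and 2 with a positive difference, and a median of -0.69. Serpinf1, pigment epithelium-derived factor, is a matrix protein that restrains vessel growth and does not inhibit proteases. It stood at 44, 53.9 and 37.6 CPM in wild type and at 19.1, 21.98 and 31.4 CPM in HIP. No HIP library reached the lowest wild-type library. The log2 difference was -0.91 ± 0.27 (standard error, limma, adjusted p = 0.691). With libraries left out it ran from -1.12 to -0.76.

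Serpine2, protease nexin 1, an inhibitor of thrombin and urokinase at the cell surface, stood at 6.68, 3.62 and 5.65 CPM in wild type and 2.55, 2.38 and 8.15 CPM in HIP. HIP30 and HIP2 lay below every wild-type library and HIP3 was the highest of all 6 libraries. The difference was -0.47 with a standard error of 0.58, and it ran from -1.03 without HIP3 to -0.17 without HIP2.

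Serpina3n, an acute phase member of clade A, spread most widely in HIP. It stood at 5.96, 3.13 and 11 CPM in wild type, and HIP3 had 22.9 CPM, HIP2 1.22 CPM and HIP30 no read. The HIP libraries thus lay on both sides of the wild-type range. Mean level and fitted log2 difference had opposite signs, since HIP had the higher mean, 8.04 ± 12.9 CPM, wild type 6.70 ± 3.99 CPM (SD, n = 3), and a fitted difference of -1.96 with a standard error of 1.65. It was -0.12 without HIP30 and -3.90 without HIP3.

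Serping1, the C1 inhibitor of complement, stood at 51.8, 82.05 and 162 CPM in wild type and 117, 101 and 74.6 CPM in HIP. The HIP libraries lay within the wild-type range, and the difference of 0.12, with a standard error of 0.39, turned to -0.27 without WT26. Serpinh1, the collagen chaperone HSP47 of the endoplasmic reticulum, stood at 85.8, 60.4 and 78.2 CPM and 94.8, 67.2 and 70.5 CPM. Its libraries were interleaved, with a difference of 0.049 and a standard error of 0.22, and the sign turned without WT1 or HIP30. Collagen genes that Serpinh1 serves had wider differences, with Col3a1 at 502, 687 and 748 CPM in wild type and 125, 255 and 609 CPM in HIP, Col5a1 at 58.4, 51.2 and 44.7 CPM and 10.1, 24.7 and 59.5 CPM, and Col1a1 at 328, 425 and 590.2 CPM and 40.97, 133 and 628 CPM. For Col3a1 and Col1a1 HIP30 and HIP2 were low and HIP3 was above at least 1 wild-type library, and neither passed (limma, adjusted p = 0.691 for each). Of 16 tested genes of collagen and its folding 11 were negative and 5 positive, with a median of -0.14.

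Fibroblast marker levels also varied between the libraries, and no marker passed the test. All 10 tested of 11 fibroblast and stellate cell markers were lower in HIP by sign (median -1.16), and the sum over the 11 was 1504, 2128 and 2323 CPM in wild type against 477, 837 and 1852 CPM in HIP. This order within HIP, with HIP30 lowest and HIP3 highest, was that of Serpinf1 and Serpina3n, and not that of Serpine2, Serping1 or Serpinh1. It was not particular to stromal members, since Serpina1, Serpina9, Serpinb1a, Serpinb2, Serpinb5, Serpinb7 and Serpinb8 had it too. Within wild type the fibroblast sum was lowest in WT26 and highest in WT4, whereas Serpinf1 was lowest in WT4 and Serpina3n in WT1. Mfap5 had no read in WT26 and WT1, and the other 10 markers were read in every library. All 7 tested smooth muscle and pericyte markers were negative too, with a median of -1.03. The part of fibroblasts and muscle in the stromal Serpin differences was not tested.

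**Figure D3:**
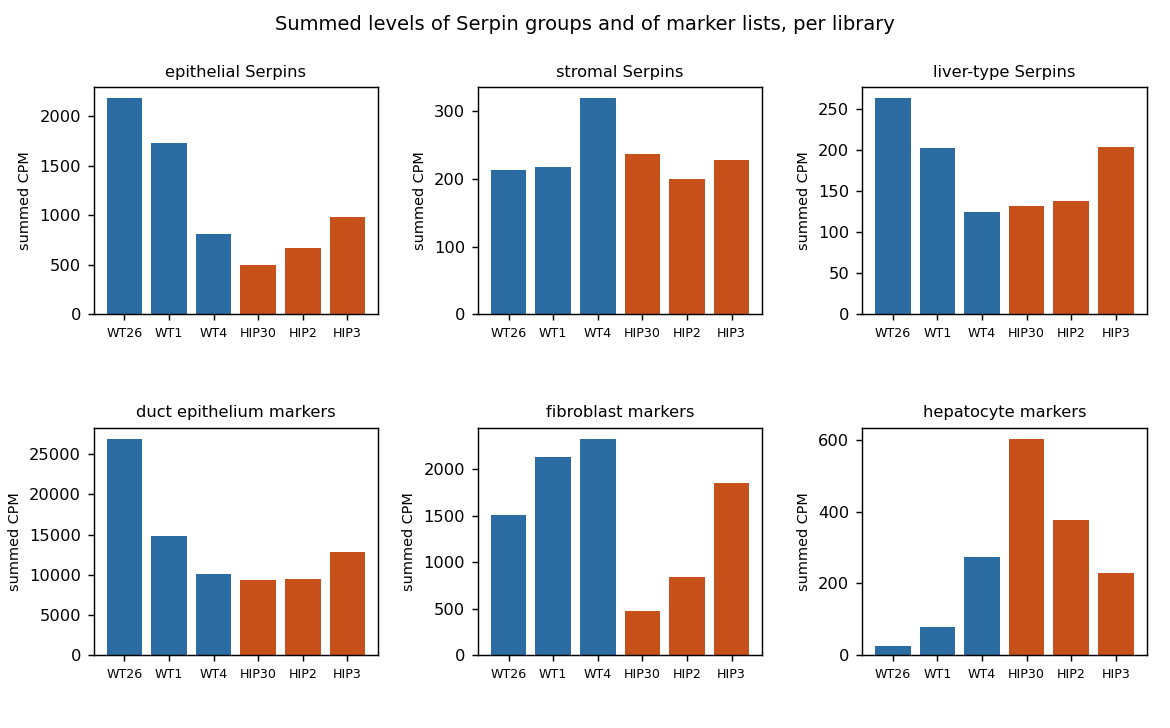
Summed CPM per library (wild type in blue, HIP in orange, axes from 0) for the epithelial, stromal and liver-type Serpin members in the upper row, and for the duct epithelium, fibroblast and hepatocyte marker lists in the lower row. The epithelial Serpin sum and the duct marker sum are both highest in WT26, and the fibroblast sum is lowest in HIP30 and HIP2.

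Liver-type members showed no common direction, and several had too few reads to test. Of 8 members 4 were tested, 2 negative and 2 positive, with a median of 0.026. Serpina1, alpha-1-antitrypsin, the main plasma inhibitor of neutrophil elastase, stood at 256, 196 and 115 CPM in wild type and 119.6, 129.9 and 196 CPM in HIP. HIP3 was level with WT1, and the other HIP libraries were near WT4. The log2 difference was -0.31 ± 0.32 (standard error, limma, adjusted p = 0.849). It was -0.051 without WT26 and -0.63 without WT4.

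The measured hepatocyte markers differed widely in their reads. Alb, which encodes albumin, had 0, 11, 7, 0, 4 and 6 reads in WT26, WT1, WT4, HIP30, HIP2 and HIP3, and Apoa1 had 1, 4, 15, 11, 7 and 2. In the same order Apob had more, with 98, 114, 126, 127, 106 and 36 reads, and Cyp2e1 had 0, 8, 125, 93, 134 and 6. Of 12 measured hepatocyte markers 5 were tested, 4 positive and 1 negative, and their sum of 24.5, 79.3 and 273 CPM in wild type and 603, 376 and 229.7 CPM in HIP came mostly from Tf and Ttr. The sum was lowest in WT26, where Serpina1 was highest. The cells that gave the Serpina1 reads were not tested.

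Serpind1, heparin cofactor II, which inhibits thrombin, stood at 4.17, 4.24 and 6.69 CPM in wild type and 5.59, 6.17 and 5.64 CPM in HIP. The difference was 0.23 with a standard error of 0.39, over 0.12 to 0.45 with libraries left out, and the HIP libraries lay within the wild-type range. Serpina11, a secreted clade A member, stood at 2.49 and 1.16 CPM in HIP30 and HIP2, above its wild-type range of 0.243 to 0.676 CPM, but at 0.245 CPM in HIP3. Serpinf2, alpha-2-antiplasmin, stood at 4.19 CPM in HIP30 and between 0.919 and 2.38 CPM in the other libraries. Its difference of -0.18 turned sign without HIP2 or HIP3. Serpinf2 is the direct neighbour of Serpinf1 in the RefSeq order, and the 2 genes did not share an order of libraries. Members of this group that were not tested were Serpinc1 (antithrombin), with 47 reads in all, Serpina6 (corticosteroid-binding globulin) with 9, Serpina4 (kallistatin) with 5 and Serpina3k with 2.

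A further pair of members was tested outside these groups. Serpini1, neuroserpin, an inhibitor of tissue plasminogen activator known from neurons, stood at 2.86, 3.01 and 3.47 CPM in wild type and at 1.40, 1.10 and 0.858 CPM in HIP. The groups did not overlap, and unlike the other 5 members with an unadjusted p under 0.05 it was lowest in HIP3. The log2 difference was -1.40 ± 0.51 (standard error, limma, adjusted p = 0.691), over -1.56 to -1.24 with libraries left out. Of 7 measured neural and Schwann cell markers 4 were tested and all were positive, and the sum over the list was 21.6 to 52.8 CPM in wild type and 31.2 to 44.9 CPM in HIP. Serpina9, known from germinal centre B cells, ranged from no read in HIP30 to 1.90 CPM in HIP3, and its difference of -0.41 turned to 0.57 without HIP30.

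The titles carry the numbers 26 and 30 in 1 library of each group and 1 to 4 in the others, and the labels do not say what the numbers mean. Between HIP30 and WT26, and between the means of HIP2 and HIP3 and of WT1 and WT4, the log2 differences were -2.997 and -0.63 for Serpinb5 and -2.15 and -0.76 for Serpinb8. For Serpinb2 the second was -1.54, and the first had no read in HIP30 against 86.2 CPM in WT26. They were -1.22 and -1.41 for Serpinb7, -1.20 and -0.77 for Serpinf1 and -0.97 and -1.62 for Serpini1. The sign was negative on both sides for all 6 genes, but the genes were chosen for a lower level in HIP over these same libraries. For Serpinb7, Serpinb8, Serpinf1 and Serpini1, whose groups did not overlap, no other sign was possible. The shared sign is therefore no further evidence. These pairs hold 1 or 2 libraries a group and were not tested on their own.

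**Figure D4:**
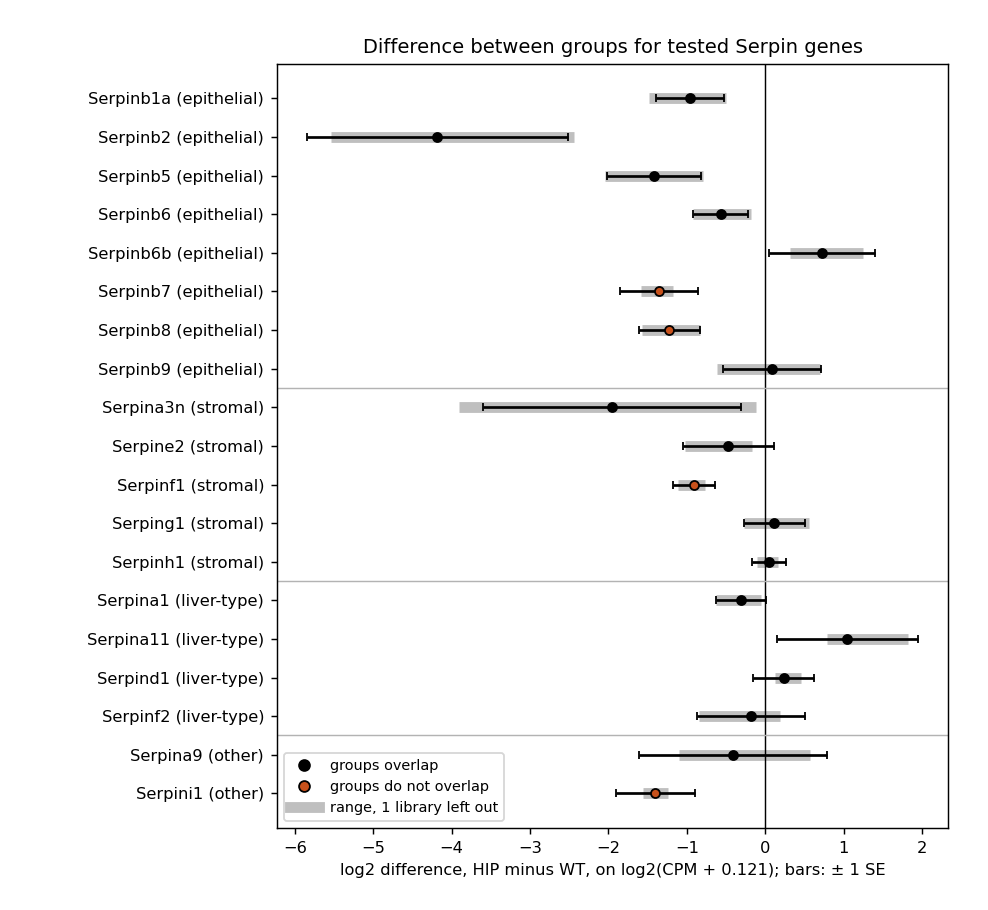
Log2 difference (HIP minus WT) of the tested Serpin genes, 1 of them not shown, with bars of 1 standard error and a grey band for the range with 1 library left out in turn. Orange points mark the 4 genes whose groups do not overlap, all at negative values, and the bands of Serpinb9, Serping1, Serpinh1, Serpinf2 and Serpina9 cross 0.

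The 13 members that were not tested had 1 to 47 reads over the 6 libraries. Besides the liver-type members named above they were Serpinb9d, Serpina5, Serpini2 and Serpina1f. Serpinb3, Serpinb10, Serpinb11, Serpinb12 and Serpinb13, clade B members grouped here as epithelial, were not tested either. Serpinb9d had 21 reads in WT4 and none elsewhere, and Serpinb11 had 4 and 16 reads in WT1 and WT4 and none elsewhere. Serpini2, called pancpin and known from acinar cells, had 21 reads in HIP3, 3 in WT4 and 2 in HIP2. HIP3 and WT4 also held the most acinar transcripts, with marker sums of 135 and 84.6 CPM against 24.6 to 36.4 CPM in the other libraries. WT4 had reads for 30 of the 33 members and HIP30 for 19.

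Proteases that serpins act on were taken from lists by class, and none of them passed the test (limma, adjusted p of at least 0.691). Of 11 plasminogen and clotting proteases only the plasminogen activators Plat and Plau were tested, both positive. Plat, tissue plasminogen activator, a target of Serpini1, stood at 20.6, 38.2 and 106 CPM in wild type and 146, 131 and 48.7 CPM in HIP, with HIP30 and HIP2 highest. Plau, urokinase, stood at 41.1, 23.95 and 30.3 CPM and 43.2, 31.3 and 25.1 CPM, with the groups interleaved and a difference of 0.062. Of 14 membrane and secreted epithelial proteases 7 negative and 7 positive differences were found, with a median of -0.038. Among them Hpn, the transmembrane protease hepsin, stood at 0.954, 4.42 and 13.01 CPM and 52.3, 22.96 and 9.31 CPM, and Klk11, a kallikrein, at 2.15, 1.41 and 0.912 CPM and 0.0608, 0.244 and 0.0613 CPM. Prss23, a secreted serine protease, stood at 40, 43.97 and 83.8 CPM and 140.1, 97.9 and 55.9 CPM. HIP30 and HIP2 exceeded every wild-type library for Hpn. Klk11 was lower in every HIP library than in any wild-type library, with 36, 23 and 15 reads in wild type and 1, 4 and 1 in HIP. Only the wild-type libraries of Klk11 reached the level needed for testing, so that its direction is no further evidence.

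Of 4 complement proteases 2 were negative and 2 positive. Masp2, a protease of the lectin pathway inhibited by Serping1, stood at 28.1, 24.6 and 30.5 CPM in wild type and 48.3, 47.01 and 31.1 CPM in HIP, without overlap but with HIP3 close to WT4, and C1s at 50.2, 71.7 and 76.2 CPM and 36.3, 36.9 and 60.2 CPM. Masp1, another protease of the lectin pathway, stood at 0, 3.75 and 11.3 CPM and 13.1, 11.5 and 3.86 CPM. HIP3 was nearest to wild type for C1s. Of 8 cathepsins and caspases 5 negative and 3 positive differences were found, with the cathepsin Ctss at 5.01, 12.96 and 27.1 CPM and 29.7, 28.6 and 17.3 CPM, the death caspase Casp8 at 126, 132 and 95.9 CPM and 80.8, 96.2 and 110.2 CPM and the inflammatory Casp4 at 21.7, 24.01 and 59.9 CPM and 74.1, 66 and 28.2 CPM. Of 5 tested pancreatic proteases 2 were negative and 3 positive, with Ctrc, chymotrypsin C, at 0, 0.123 and 2.43 CPM and 0.547, 1.04 and 1.90 CPM, Cela1, an elastase, at 35.3, 19.96 and 21.9 CPM and 23.6, 14.8 and 22.5 CPM, and Ctrl at 4.83, 3.01 and 3.40 CPM and 1.58, 3.54 and 4.53 CPM. The 8 leukocyte proteases in the tables, the granzymes and Prtn3 among them, were too low to test, with sums of 0 to 1.88 CPM per library. Gzmb, which encodes the granzyme that Serpinb9 inhibits, had 1 read in HIP30, 1 in HIP3 and none elsewhere.

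Receptors and cofactors of serpins numbered 16 tested genes, 10 negative and 6 positive, with a median of -0.15. Plaur, the urokinase receptor, stood at 109, 43.6 and 41.9 CPM in wild type and 39.8, 33.6 and 26.8 CPM in HIP. Every HIP library lay below every wild-type library, by a small margin next to WT4. Vldlr, a receptor that clears serpin complexes, stood at 76.5, 80.6 and 43.4 CPM and 22, 36.8 and 52.1 CPM, and Lrp1b, a related receptor, at 0, 3.75 and 14.3 CPM and 74.7, 68.5 and 10.9 CPM. HIP30 held the lowest Vldlr and the highest Lrp1b level. The differences were -0.82, -0.89 and 4.34, with standard errors of 0.38, 0.37 and 1.62 (limma, adjusted p = 0.691 for each). With 1 library left out they ran from -1.06 to -0.37 for Plaur, -1.18 to -0.56 for Vldlr and 2.36 to 5.81 for Lrp1b.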

How the data were processed

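RNA of laser-captured glands was sequenced in 6 libraries. Libraries were made with a low-mass RNA kit from Nugen, per the labels' protocols. The authors' tools included STAR, HTSeq, edgeR and limma, with rn5 as the genome build, per the submitters' processing notes, and neither versions nor use of strand is stated there. Each deposited table holds 15679 rows of log2 CPM values made by the authors, and their listing of 0 reads equals that of an added 0.25 reads per library of mean depth. Whole reads were recovered for 100% of entries within 0.1 reads. The 4 rows of 2 repeated symbols were left out.

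HIP was compared with WT by limma 3.58.1 (R 4.3.3) and its intensity trend. The values tested were log2 of CPM scaled by TMM factors with trims of 30% and 5%, plus 2 reads of an average library (0.121 CPM). Such differences understate the change of low genes. A gene was tested if 3 libraries reached 0.610 CPM, or 10 reads at the median depth, and all libraries together 15 reads, which left 12102, and P-values were adjusted over all of them. No pairing was used. The steps were tested on simulated data. Members, gene lists, motifs and alternatives were chosen with earlier results of these data known, and the grouping into epithelial, stromal and liver-type members is from general knowledge. Values in every library are given for members with a mean of at least 5 CPM in either group, without overlap or with an unadjusted p under 0.05. From each protease, receptor and collagen list at most 3 genes of lowest unadjusted p and at least 1 CPM were named. A further few markers and proteases were named after their values were seen. The values of 1 stromal member are not reported here, though counts, medians and sums include it. Serpinb6 and Serpina3k were matched to RefSeq by synonym. Figures were drawn with matplotlib 3.10.9.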

Additional observations from a re-analysis of the deposited data

How the results depend on the processing

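No member and no other gene passed limma's test under any of the 16 alternatives. The lowest adjusted p of a member was 0.146 without HIP3 and 0.08 without both WT4 and HIP3, a setting added after seeing the data. With 1 library left out, the median of the tested members ran from -1.01 to -0.56, the lowest value being without HIP3, and it was -0.96 without both WT4 and HIP3, -0.31 with no filter, -0.94 with a filter of 30 reads and -0.81 by limma-voom with sample quality weights. Members lower in HIP at an unadjusted p under 0.05 are given with the share of all genes by the same rule. They numbered 6 as reported (3.26%), 1 without WT1 (1.08%), 3 without HIP30 (1.34%) and without HIP2 (1.31%), 7 without WT4 (5.47%) and without HIP3 (8.8%), 4 with the number series as a term (4.25%), 8 with quality weights (10.5%) and 9 without both WT4 and HIP3 (10.7%). Of 20 tested members 15 kept their sign wherever they were tested. The others were Serpina9 (-1.10 to 0.57 with libraries left out), Serpinb9 (-0.62 to 0.69, and -0.12 by limma-voom with sample quality weights), Serpinf2 (-0.84 to 0.19, and 0.083 without both WT4 and HIP3), Serping1 (-0.27 to 0.55) and Serpinh1 (-0.10 to 0.16). Of the partner genes, Plau ran from -0.14 to 0.26 and Ctrl, a chymotrypsin-like protease, from -0.60 to 0.12. The cause of these shifts was not tested. No paired analysis was possible because the groups share no replicate numbers. Counts of 0 allow 0.179 to 0.184 CPM, for counting error only.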

Other observations

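Protease inhibitors of other families did not share 1 direction. Of 12 tested 9 were negative and 3 positive, with a median of -0.13. Reck, a membrane inhibitor of matrix metalloproteinases, stood at 29.6, 60.1 and 35.99 CPM in wild type and 13.4, 24.5 and 26.3 CPM in HIP, without overlap between the groups. Cst6, a secreted cystatin, stood at 21.5, 9.03 and 12.6 CPM and 9.36, 4.15 and 5.27 CPM, with WT1 just under HIP30. Wfdc2, a secreted epithelial protein with a whey acidic protein domain, ran the other way in HIP30 and HIP2, at 72.1, 50.2 and 113 CPM and 357, 153 and 67.8 CPM. None of these genes passed limma's test (adjusted p = 0.691 for each).

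A list of genes grouped as inducers and readouts of inflammation and TGF-beta was also read. Cdkn1a, a cell cycle inhibitor and p53 target, stood at 176, 132 and 89.2 CPM in wild type and 44.6, 51.96 and 82.95 CPM in HIP, without overlap. Cebpd, a transcription factor of the acute phase, stood at 13.4, 10.01 and 18.9 CPM and 44.8, 26.99 and 18.9 CPM, and C3 of complement at 154, 499 and 1502 CPM and 1805, 1651 and 2015 CPM. For Cebpd only HIP30 and HIP2 exceeded all wild-type libraries, and for C3 all HIP libraries did. Of 24 tested genes of this list 7 were negative and 17 positive, and none passed limma's test (adjusted p = 0.691 for these 3).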
